A study of Mus musculus with 5 samples.

Results

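Adrenomedullin is a secreted peptide of the calcitonin family, and this account follows its gene, Adm, with the related ligand gene Adm2 and the receptor genes Calcrl, Ramp1, Ramp2 and Ramp3 in B16F1 cells, a mouse melanoma line. The 6 genes were taken as every array probe whose RefSeq accession belongs to one of them, which gave 9 probes of the 32988 probes that could be named, and 6 of 22907 named genes. The set was chosen by a measured value, the level of Adm in both Tmsb4x knockout clones with TGF-β1 over that in wild-type cells with TGF-β1. That difference is therefore given as a description, with no test.

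RNA of 5 cultures was measured on 5 Agilent arrays with 1 dye. The groups were 2 Tmsb4x knockout clones with TGF-β1 (10 ng/ml for 2 days, 1 array per clone), wild-type B16F1 cells with TGF-β1 and CCG1423 (10 µM), wild-type cells with TGF-β1 alone, and wild-type cells with vehicle, each of these with 1 array. Tmsb4x encodes thymosin β4, which binds actin monomers, and CCG1423 inhibits signalling through MRTF, a transcriptional coactivator held inactive by monomeric actin. Each knockout line is 1 clone, there was no knockout culture without TGF-β1, and the labels of the array with CCG1423 name TGF-β1 in the title and description but not in the treatment field. A label speaks of a knockout where the design text speaks of a knockdown.

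Levels are log2 processed signals minus the 75th percentile of the same array, so 0 is that percentile and a step of 1 is a 2-fold step. Between 48.2% and 53.8% of the 56595 probes were well above background, and 0 spots were saturated. Clone 2 had the highest threshold, with a lowest such signal of 26.0, against 13.3 to 15.5 on the other arrays. The level of Tmsb4x was 5.44 in clone 1 and 4.28 in clone 2, against 7.12 in wild-type cells with TGF-β1, 6.79 with CCG1423 added and 5.05 with vehicle. Both clones were thus below the other cultures with TGF-β1 but still well above background, clone 1 lay above vehicle, and which stretch of the gene was edited is not given in the sources used here. All 8 melanocyte-lineage markers were well above background on every array. Of 7 endothelial markers at most 1 was, Pecam1, and their summed signal was 0.142 to 0.185 times the 75th percentile on all 5 arrays. Of 4 lymphatic endothelial markers 1 was, Prox1, with summed signals of 0.304 and 0.430 in the clones, 0.719 with TGF-β1 and CCG1423, 0.328 with TGF-β1 and 0.475 with vehicle. Of 7 immune markers 4 or 5 were, with summed signals of 41.2 and 32.6 in the clones, 42.6 with TGF-β1 and CCG1423, 33.5 with TGF-β1 and 33.7 with vehicle, but not Ptprc and Adgre1. Of 5 fibroblast markers 1 was, Lum, on the vehicle array alone (level -1.78), and of 5 epithelial markers at most 1 was, Krt5.

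Adrenomedullin acts through the G protein-coupled receptor encoded by Calcrl, which needs a receptor activity-modifying protein (RAMP) as a partner to reach the cell surface and to choose its ligand. With RAMP1 the receptor prefers calcitonin gene-related peptide, and with RAMP2 or RAMP3 it prefers adrenomedullin. The receptor raises cyclic AMP through Gs. The peptide is known for widening and shaping blood and lymphatic vessels, and its gene is a textbook target of the hypoxia-inducible factors (HIF).

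Adm was bright in the knockout clones, intermediate in wild-type cells and lost in the background with the inhibitor. Its level was 1.23 in clone 1 and 1.29 in clone 2 with TGF-β1, against -1.45 in wild-type cells with TGF-β1. With vehicle the wild-type level was -0.42. When CCG1423 joined TGF-β1 the measured value was -4.26, not well above background, below the lowest level so called on that array (-3.92). Both clones lay above all 3 wild-type arrays, and the array with CCG1423 lay below the others.

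As raw signals the same spots read 660 and 804 in the clones, 12.0 in wild-type cells with TGF-β1 and CCG1423, 108 with TGF-β1, and 223 with vehicle. The scanner software's own error for these spots was 66.1, 80.6, 3.35, 11.1 and 22.6, in the same order of arrays. A single spot on each array stands for Adm and none was marked as an outlier. The gaps between the wild-type arrays are several times that spot error, which does not cover the spread between cultures.

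**Figure D1:**
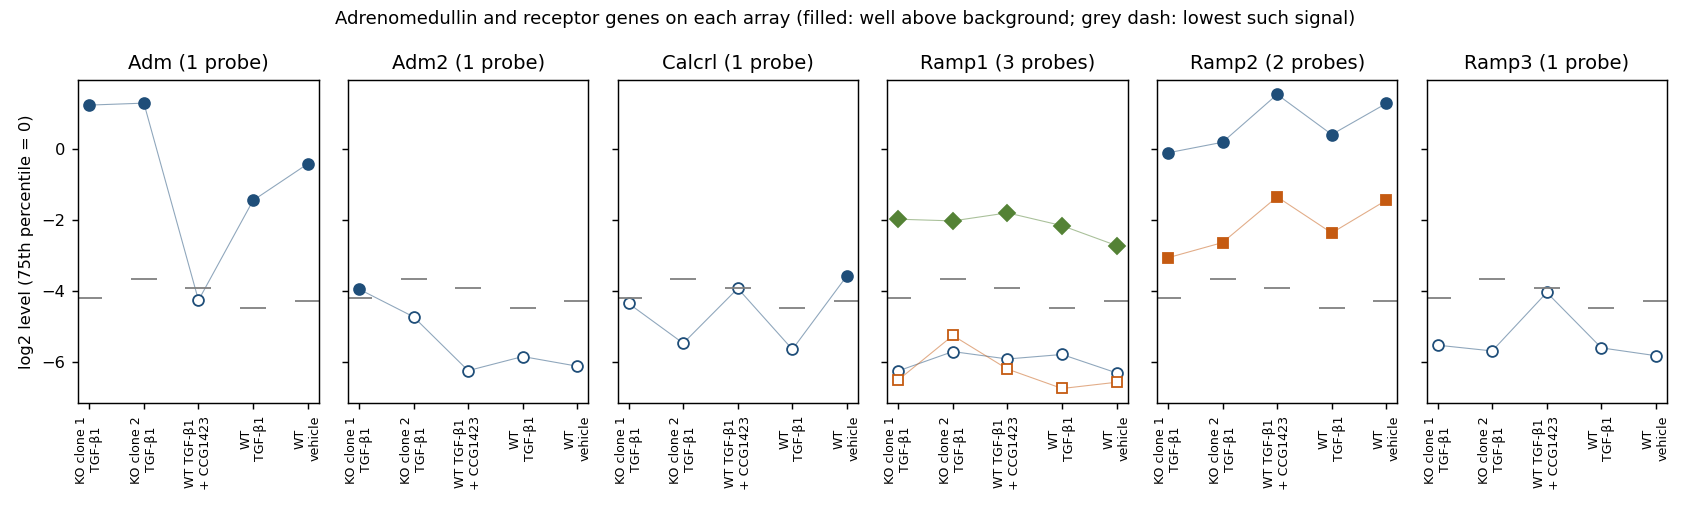
Log2 level (75th percentile of the array = 0) of all 9 probes of the 6 genes on the 5 arrays, with filled symbols for values well above background, open symbols for the rest and a grey dash for the lowest level well above background on that array. Adm sits at 1.23 and 1.29 in the clones, is open at -4.26 with CCG1423, and is at -1.45 and -0.42 in wild-type cells with TGF-β1 and vehicle, while both Ramp2 probes follow one order of arrays.

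The stretch just before the start of Adm is shown because Adm is known as a HIF target. It comes from the RefSeq promoter table of GRCm38.p6, on the plus strand at chr7:110627407-110627656, and ends at the base before the annotated start. Capitals mark the HIF core letters, ACGTG or GCGTG, searched on both strands. The matching stretch for Adm2, on the plus strand at chr15:89322470-89322719, is shown beside it as the promoter of the other ligand gene and holds no such match.
Adm: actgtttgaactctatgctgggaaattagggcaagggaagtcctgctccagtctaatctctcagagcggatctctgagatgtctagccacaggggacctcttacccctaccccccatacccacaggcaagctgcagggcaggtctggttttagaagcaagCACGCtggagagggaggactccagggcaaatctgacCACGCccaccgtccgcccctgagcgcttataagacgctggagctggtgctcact
Adm2: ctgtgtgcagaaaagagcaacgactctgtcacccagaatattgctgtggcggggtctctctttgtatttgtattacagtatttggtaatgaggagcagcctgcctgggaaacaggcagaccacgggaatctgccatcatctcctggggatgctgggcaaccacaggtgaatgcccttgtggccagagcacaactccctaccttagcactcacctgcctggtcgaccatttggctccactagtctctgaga
The Adm stretch held 2 matches, both GCGTG read on the reverse strand, which begin 90 and 54 bases before the start. Of all 32851 promoters searched over the same 250 bases, 38.6% held at least 1 match and 16.7% at least 2. Among the 5 of the 6 genes in that table, Ramp3 held 2 matches and Adm2, Calcrl and Ramp1 held 0. The letters CAGAC, a SMAD-binding element, occurred once in Adm, on the reverse strand and apart from the HIF letters. They also occurred once each in Adm2, Calcrl and Ramp1, and in 42.2% of all promoters. The cyclic AMP response half-site TGACG (17.8% of promoters) and the CArG box bound by SRF (1.47%) occurred in none of the 5 windows. A match is only a string of letters in this window, and an absent match says nothing about the factor.

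The knockout comparison sets the clones against wild-type cells under the same TGF-β1 treatment. Adm was 6.42-fold higher in clone 1 and 6.68-fold higher in clone 2, a mean log2 difference of 2.71 ± 0.04 (SD, n = 2 clones). The clones differed from each other by 0.06. Among the 13729 genes compared, 13 had a higher mean difference than Adm. Of the 6 genes, 3 could be compared there (Adm, Ramp1 and Ramp2). Adm was at least 2-fold higher in both clones, as were 0.699% of all genes, and 0 of the 3 were 2-fold lower, where 1.58% of all genes were. This contrast chose the set, so nothing is read from these counts.

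Against wild-type cells with vehicle, Adm was 3.15-fold higher in clone 1 and 3.27-fold higher in clone 2. Genotype and TGF-β1 both differ there, and 3.1% of all genes were at least 2-fold higher in both clones. Against wild-type cells with TGF-β1 and CCG1423, the clones were at least 35.6-fold and 36.9-fold higher, and 4.62% of all genes were at least 2-fold higher in both clones there. These comparisons share the clone arrays and are not independent of one another.

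In wild-type cells the signal of Adm was lower at each step of the arrays with vehicle, TGF-β1, and TGF-β1 plus CCG1423. The level with TGF-β1 was -1.45, against -0.42 with vehicle, which is 2.04-fold lower, just past 2-fold. Of all 14145 genes compared, 3.27% were at least 2-fold lower with TGF-β1. The call was lost with normexp background correction (log2 difference -0.73) and in the deposited value table (-0.93).

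With TGF-β1 and CCG1423, Adm was at least 5.53-fold lower than with TGF-β1 alone and at least 11.3-fold lower than with vehicle. Against vehicle 8.06% of all genes were at least 2-fold lower and 7.56% higher. These folds are bounds, taken against the lowest level well above background on the array with the inhibitor. At least 2-fold lower with the inhibitor than with TGF-β1 alone were 6.98% of all 14057 genes. The log2 difference on measured values was -2.81 and became -0.97, under 2-fold, with normexp background correction. Each of these wild-type groups is 1 array, so the differences have no replicate check. For scale, clone 2 and clone 1 under the same treatment were at least 2-fold apart in 7.57% of 13849 genes, with 4.24% higher in clone 2 and 3.34% lower.

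Melanocyte-lineage markers moved with the inhibitor too. All 8 were lower with TGF-β1 and CCG1423 than with TGF-β1 alone, with a median log2 difference of -0.45, and 2 of them, Mitf and Mlana, were at least 2-fold lower, as were 6.98% of all genes. Of the other cell type markers, the immune marker Cd68 was 2.82-fold and the lymphatic endothelial marker Prox1 2.27-fold higher there, as were 6.01% of all genes 2-fold. The summed signal of the melanocyte list was 2763 and 2830 times the 75th percentile in the clones, 1816 with TGF-β1 and CCG1423, 2426 with TGF-β1 and 2369 with vehicle. Their part in the Adm values was not tested.

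Ordered by level, Adm ran from the 2 clones through wild-type cells with vehicle and then with TGF-β1 down to TGF-β1 with CCG1423. The gap between the clones was 0.06, and the other steps are between single arrays, with no spread to set them against. In bulk RNA a lower level cannot tell fewer expressing cells from less RNA per cell.

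**Figure D2:**
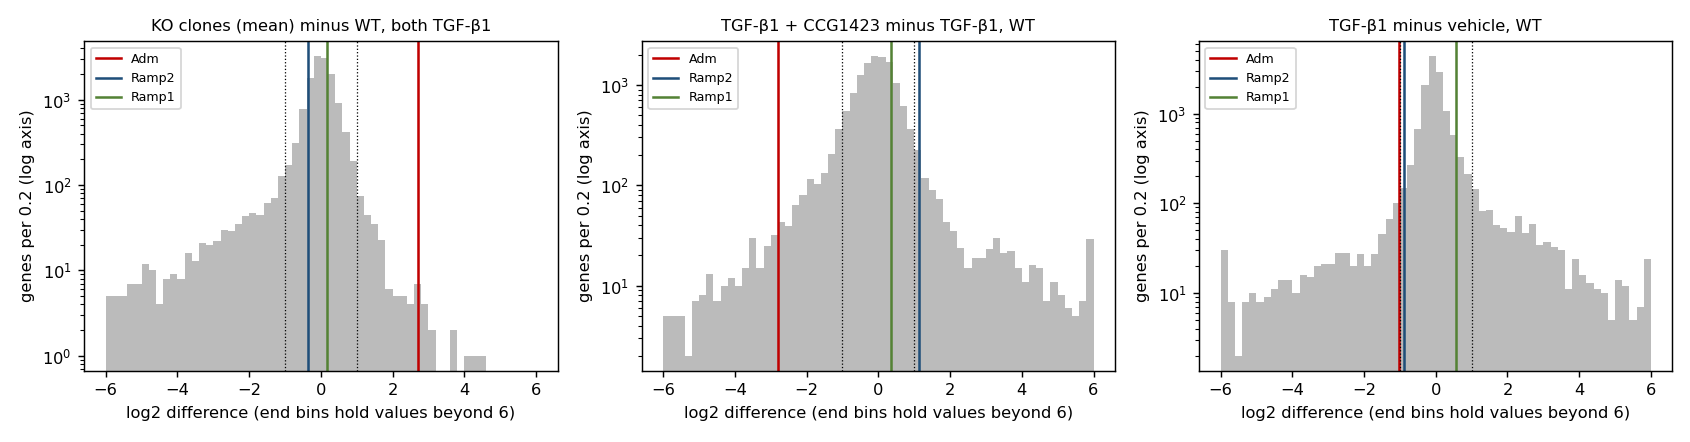
Number of genes (log axis) by log2 difference in the knockout comparison (mean of 2 clones), the CCG1423 comparison and the TGF-β1 comparison, with lines for Adm, Ramp2 and Ramp1 and dotted lines at 2-fold. Adm stands at 2.71, -2.81 and -1.03, and Ramp2 at -0.37, 1.13 and -0.88.

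Adm2, which encodes the ligand also called intermedin, was dim. It was well above background on 1 of 5 arrays, clone 1, with a level of -3.95, against -4.73 in clone 2. In wild-type cells it was at -6.24 with TGF-β1 and CCG1423, -5.85 with TGF-β1 and -6.12 with vehicle, all not well above background. The bound for clone 1 over wild-type cells with TGF-β1 was at least 1.44-fold higher, and no fold can be given for clone 2. The measured values of both clones were above those of the 3 wild-type arrays, but only 1 of the 5 is a level above background.

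Calcrl, the receptor itself, was also at the edge of detection. Its level was -4.35 in clone 1 and -5.47 in clone 2, against -5.65 in wild-type cells with TGF-β1. Under TGF-β1 plus CCG1423 it was -3.93, and with vehicle -3.57. Vehicle was the only array well above background. TGF-β1 was at least 1.87-fold lower than vehicle by this probe, and the clones were at least 1.55-fold and 1.07-fold lower than vehicle. The other arrays cannot be ordered.

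Ramp2, the partner that turns the receptor towards adrenomedullin, was well above background on every array by both of its probes. The brighter probe gave -0.11 in clone 1 and 0.19 in clone 2, against 0.40 in wild-type cells with TGF-β1. Under TGF-β1 plus CCG1423 it gave 1.53, and with vehicle 1.28. The second probe gave -3.07 in clone 1 and -2.64 in clone 2, -1.35 with TGF-β1 and CCG1423, -2.37 with TGF-β1 and -1.45 with vehicle. Both probes put the array with CCG1423 highest, then vehicle, then TGF-β1, with the clones lowest.

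By the brighter probe Ramp2 was 1.43-fold and 1.16-fold lower in the clones than in wild-type cells with TGF-β1, a mean log2 difference of -0.37 ± 0.21 (SD, n = 2 clones). By the second probe it was 1.62-fold and 1.21-fold lower. Neither probe reached 2-fold, and the gap between clone 2 and wild type is no larger than the gap of 0.30 between the clones by the brighter probe. Against vehicle the clones were 2.62-fold and 2.13-fold lower by the brighter probe and 3.07-fold and 2.28-fold lower by the second, where 2.45% of all genes were at least 2-fold lower in both clones. Against TGF-β1 with CCG1423 they were 3.13-fold and 2.54-fold lower by the brighter probe, where 4.09% of all genes were.

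In wild-type cells Ramp2 was 1.83-fold lower with TGF-β1 than with vehicle by the brighter probe, and 1.89-fold lower by the second. Adding CCG1423 to TGF-β1 went with a 2.19-fold higher signal by the brighter probe and 2.02-fold higher by the second, and 6.01% of all genes were at least 2-fold higher there. That 2-fold call sits at the threshold. With normexp the brighter probe gave a log2 difference of 0.93 and the second 0.61, and in the deposited value table they gave 1.00 and 0.88. Between the array with CCG1423 and vehicle the difference was 0.25 by the brighter probe and 0.09 by the second.

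Ramp1, the partner for calcitonin gene-related peptide, had 3 probes that disagreed on whether the gene was detected. The probe for transcript NM_001168392 was well above background on all 5 arrays, at -1.98 in clone 1 and -2.03 in clone 2, against -2.16 in wild-type cells with TGF-β1. Under TGF-β1 plus CCG1423 it was at -1.80 and with vehicle at -2.72. Both probes for transcript NM_016894 stayed between -6.75 and -5.25 and were well above background on none. By the detected probe the clones were 1.13-fold and 1.10-fold higher than wild type with TGF-β1. TGF-β1 was 1.48-fold higher than vehicle, and CCG1423 with TGF-β1 was 1.28-fold higher than TGF-β1 alone. No step reached 2-fold, and the sign of the knockout difference turned in the deposited value table (-0.04).

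Ramp3, the other partner for adrenomedullin, was well above background on no array. Its 1 probe gave -5.53 and -5.69 in the clones, -4.04 with TGF-β1 and CCG1423, -5.60 with TGF-β1 and -5.82 with vehicle. Its levels are bounds only. The ligand and receptor genes of the same peptide family outside the 6, Calca, Calcb, Iapp and Calcr, were likewise above background on none of the 5 arrays.

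Of all genes, 0.699% were at least 2-fold higher and 1.58% lower in both clones in the knockout contrast. The genes that process, bind or clear adrenomedullin were listed as a group of 9, of which 6 could be compared there. None was at least 2-fold apart in both clones, and with limma 0 of the 6 passed in either direction and 0 had an unadjusted p under 0.05, as did 793 of all 13729 genes. Their median log2 difference was -0.11, against -0.01 over all genes. Pam, the enzyme that amidates the peptide into its active form, was at -2.70 in clone 1 and -1.69 in clone 2, against -1.94 in wild-type cells with TGF-β1. Those clone values lie on both sides of wild type. In wild-type cells Pam was at -1.69 with TGF-β1 and CCG1423 and -1.65 with vehicle.

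Ackr3, an atypical chemokine receptor that also takes up adrenomedullin, was at 1.21 in clone 1 and 1.02 in clone 2, against 1.70 in wild-type cells with TGF-β1. That difference was -0.59 (SE 0.30, limma adjusted p = 0.961) and did not pass. With TGF-β1 and CCG1423 it was at -0.57, 4.85-fold lower than with TGF-β1 alone, and with vehicle it was at 0.91. Furin, a protease that cuts many precursor peptides, was at 4.40 in clone 1, 5.08 in clone 2 and 4.56 in wild-type cells with TGF-β1. It was at 4.20 with CCG1423 added and 2.79 with vehicle, so TGF-β1 was 3.43-fold higher than vehicle. Of 6 list genes compared there, 1 was at least 2-fold higher, Furin, and 0 lower, against 4.95% and 3.27% of all genes. With CCG1423 added to TGF-β1, 1 of 6 was at least 2-fold lower, Ackr3, and 0 higher, against 6.98% and 6.01% of all genes. Crcp, which couples the receptor to its signalling, stayed between 2.21 and 2.35 on all 5 arrays by its brighter probe. The second Crcp probe was at -0.58 in clone 1 and -0.99 in clone 2. In wild-type cells that probe was at -0.77 with TGF-β1 and CCG1423, -0.97 with TGF-β1 and -0.82 with vehicle.

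Downstream of the receptor, genes of Gs and cyclic AMP signalling were compared next. Of 34 listed, 29 could be compared, and 0 were 2-fold apart in both clones, where 0.699% of all genes were higher and 1.58% lower. With limma 0 of 29 passed and 1 had an unadjusted p under 0.05 (793 of 13729 over all genes), with a median log2 difference of -0.13. Gnas, which encodes the Gs α subunit, was at 7.90 in clone 1 and 7.97 in clone 2, against 7.73 in wild-type cells with TGF-β1. In wild-type cells with TGF-β1, the adenylyl cyclase genes Adcy2 and Adcy7 were higher than with vehicle by 1.37 and 1.18 on the log2 scale. Rapgef3, a cyclic AMP-activated exchange factor, was lower by 1.64 and Prkar1b, a regulatory subunit of protein kinase A, lower by 1.51. Of the 29, 2 were at least 2-fold higher and 2 lower there, against 4.95% and 3.27% of all genes. With CCG1423 added to TGF-β1, 0 of the 29 reached 2-fold either way, where 6.01% of all genes were higher and 6.98% lower.

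Genes known to respond to cyclic AMP were a list of 11, all measured. In both clones, 0.699% of all genes were at least 2-fold higher than wild type with TGF-β1 and 1.58% lower. In the knockout contrast 0 were 2-fold apart in both clones and 0 passed with limma, with 1 at an unadjusted p under 0.05 (793 of 13729 over all genes). That gene was Ppargc1a, a transcriptional coactivator, at 0.63 and 0.97 in the clones and -0.22 in wild-type cells with TGF-β1 (difference 1.02, SE 0.31, limma adjusted p = 0.436). It was at 0.99 with CCG1423 added and 1.92 with vehicle, so TGF-β1 was lower than vehicle by 2.13 on the log2 scale. Junb, an AP-1 subunit, was higher with TGF-β1 than with vehicle by 1.41. Of the 11, 1 was at least 2-fold higher and 1 lower there, against 4.95% and 3.27% of all genes. With CCG1423 added to TGF-β1, 1 was at least 2-fold higher, Ppargc1a, and 0 lower, against 6.01% and 6.98% of all genes.

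Of the HIF target genes, Aldoc was the 1 at least 2-fold higher in both clones, where 0.699% of all genes were. The list held 30 genes other than Adm, of which 28 could be compared in the knockout contrast. Their median log2 difference was 0.42, against -0.01 over all genes, and 25 lay above 0 and 3 below. With limma 0 passed and 5 had an unadjusted p under 0.05, as did 793 of all 13729 genes. Over all genes 1 rose (0.00728%) and 31 fell (0.226%) at an adjusted p under 0.05.

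Aldoc, a glycolytic aldolase, was at 5.10 in clone 1 and 4.30 in clone 2, against 2.49 in wild-type cells with TGF-β1 (difference 2.21, SE 0.36, limma adjusted p = 0.0509). It was at 1.72 with TGF-β1 and CCG1423 and at 2.31 with vehicle. As with Adm, both clones lay above the 3 wild-type arrays and the array with CCG1423 lay lowest. Its second probe gave 2.27 for the knockout difference. With 6 alternative settings Aldoc passed and with 4 it did not.

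Vegfa, the vascular growth factor, was at 3.39 in clone 1 and 2.80 in clone 2, against 2.48 in wild-type cells with TGF-β1 (difference 0.61, SE 0.33, limma adjusted p = 0.99). It was at 1.69 with TGF-β1 and CCG1423 and 2.23 with vehicle. Its 4 probes gave knockout differences of 0.31 to 0.76. By the probe with 0.31, the clones lay on both sides of wild type with TGF-β1, at -0.15 and -1.56 against -1.17. With CCG1423 added to TGF-β1 that probe gave a difference of 0.09, and the others gave -0.79, -0.45 and -0.52. Bnip3, a mitochondrial death and mitophagy protein, was at 8.16 and 7.76 in the clones, 5.48 with TGF-β1 and CCG1423, 7.08 with TGF-β1 and 7.11 with vehicle. Ak4, a mitochondrial adenylate kinase, was at 4.20 and 4.34 in the clones, 1.74 with TGF-β1 and CCG1423, 3.60 with TGF-β1 and 3.67 with vehicle.

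When CCG1423 was added to TGF-β1, 25 of 28 HIF targets lay below 0 and 3 above. Their median was -0.65, against -0.05 over all genes, and 6 were at least 2-fold lower and 0 higher, where 6.98% and 6.01% of all genes were. Between TGF-β1 and vehicle the median was -0.12, against -0.05 over all genes. There 0 of the targets reached 2-fold, where 4.95% of all genes were higher and 3.27% lower. This comparison, the knockout contrast and the inhibitor contrast share the wild-type TGF-β1 array, so their values are set side by side only.

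By the order of the arrays, 27 HIF targets were well above background on all 5. Both clones lay above the 3 wild-type arrays in 14 of them, or 51.9%, against 15.1% of all 12058 such genes. The array with CCG1423 was lowest in 24, or 88.9%, against 34% of all genes. The whole order of Adm, with both clones highest, then vehicle, TGF-β1 and the inhibitor, held in 7 of the 27 (25.9%, against 4.06% of all genes): Pdk1, Bnip3, Bnip3l, Aldoa, Pfkl, Mxi1 and Ak4. Some steps in these orders were very small and lie between single arrays. TGF-β1 minus vehicle was -0.03 for Bnip3, -0.07 for Ak4 and -0.10 for Bnip3l. CCG1423 with TGF-β1 minus TGF-β1 alone was -0.03 for Aldoa. The Pdk1 probes gave knockout differences of 0.725, 0.80, 0.98 and 0.01, and the last was also flat with CCG1423 (-0.04). The genes of this list were chosen with earlier results of these data known.

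**Figure D3:**
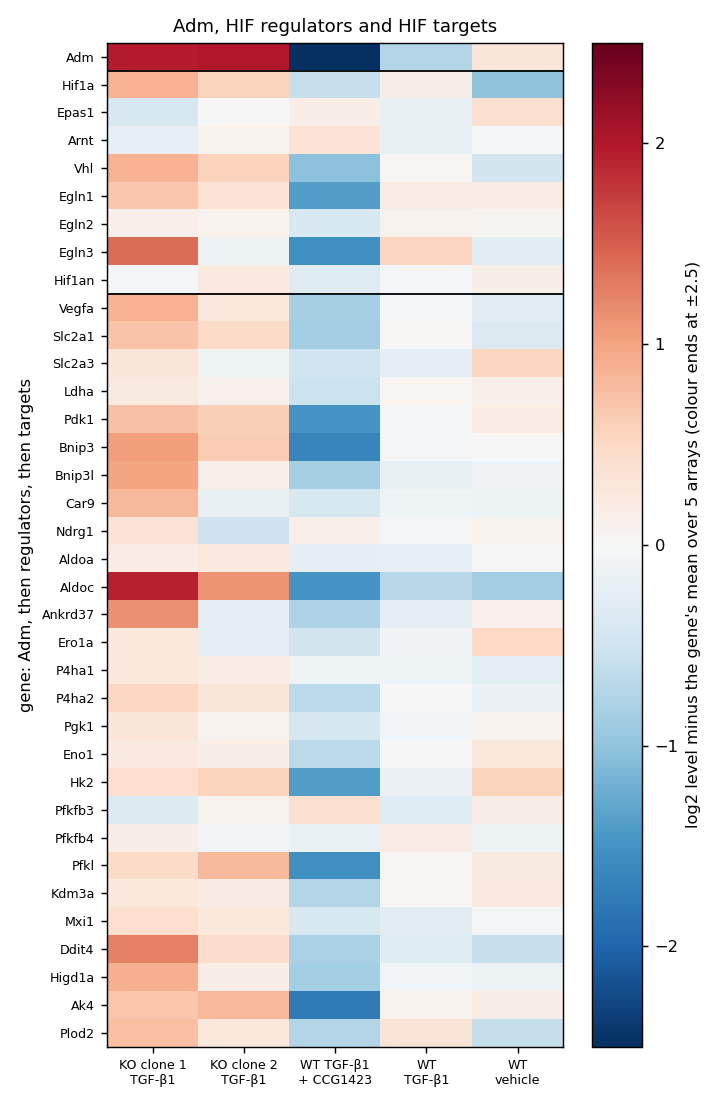
Log2 level minus the gene's own mean over the 5 arrays (colour, ending at ±2.5) for Adm, the 8 HIF regulators and the 27 HIF targets well above background on all 5 arrays, with 1 column per array. The array with CCG1423 is the lowest for 24 of the 27 targets, and both clones are the highest for 14.

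Of the genes that regulate HIF, 10 were listed and 8 could be compared. In both clones, 0.699% of all genes were at least 2-fold higher than wild type with TGF-β1 and 1.58% lower. In the knockout contrast 0 were 2-fold apart in both clones, 0 passed with limma and 1 had an unadjusted p under 0.05 (793 of 13729 over all genes). Hif1a, the oxygen-regulated subunit, was at 5.60 in clone 1 and 5.28 in clone 2, against 4.88 in wild-type cells with TGF-β1 (difference 0.56, SE 0.30, limma adjusted p = 0.983). It was at 4.15 with CCG1423 added and 3.71 with vehicle, so TGF-β1 was 2.24-fold higher than vehicle, the opposite direction to Adm. Egln1 and Egln3, hydroxylases that mark HIF for destruction when oxygen is present, were lower by 1.60 and 2.08 on the log2 scale with CCG1423 and TGF-β1 than with TGF-β1 alone.

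The genes whose profile was most like that of Adm were ranked by the root mean square difference of log2 levels, each gene centred on its own mean over the 5 arrays. There were 12058 candidates well above background on all arrays, with a median difference of 2.04. Adm itself was below background on the array with CCG1423, so its value there is a bound and the ranks and differences rest on it in part. The nearest was Tspan10, a tetraspanin of pigment cells, at 0.79 (Pearson r = 0.95 over 5 arrays), and the next was Smtnl2, a smoothelin-like protein, at 0.84 (r = 0.97). Apln, which encodes another vasoactive peptide, apelin, followed at 1.00 (r = 0.93), and the sialomucin gene Cd164 at 1.01 (r = 0.87).

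Col1a2, a chain of type I collagen, stood at 1.06 (r = 0.99), Tet1, a DNA demethylating enzyme, at 1.09 (r = 0.96), Hs3st6, a heparan sulfate sulfotransferase, at 1.10 (r = 0.90) and Pgp, a phosphatase, at 1.12 (r = 0.97). Every one was lowest with CCG1423, and the match on that array can outweigh the others. Cd164 had a log2 difference of 0.05 in the knockout contrast and -4.71 with CCG1423, against 2.71 and -2.81 for Adm. For Tspan10 these were 1.51 and -2.23. The correlations rest on 5 arrays, of which 2 are the clones. The level of Apln was 1.80 in clone 1 and 1.74 in clone 2, against -1.43 with TGF-β1 and CCG1423, 1.05 with TGF-β1 and 1.77 with vehicle. The clones thus lay near vehicle for Apln and above it for Adm. For Tspan10 the vehicle level of 3.37 lay between the clones, at 3.14 and 3.72. TGF-β1 minus vehicle was above 0 for Smtnl2 (0.35), Hs3st6 (0.48), Pgp (0.15) and Cd164 (0.19), against -1.03 for Adm. That difference was below 0 for Tspan10 (-1.45), Apln (-0.71), Col1a2 (-0.51) and Tet1 (-0.32). For Tet1 the second probe gave a smaller inhibitor difference, -0.76 in place of -2.05.

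**Figure D4:**
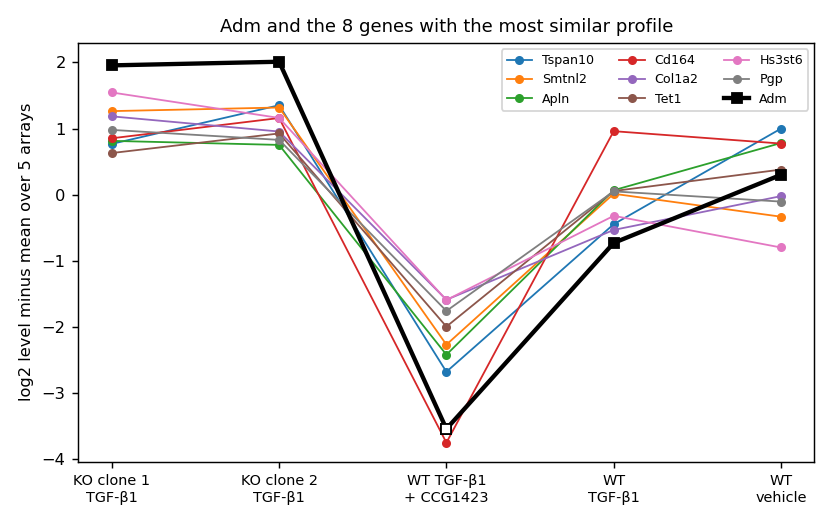
Log2 level minus the mean over the 5 arrays for Adm (black squares, open where not well above background) and the 8 genes with the most similar profile, by array. All 9 are lowest with TGF-β1 and CCG1423, and root mean square differences from Adm run from 0.79 to 1.12.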

How the data were processed

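Total RNA of 5 B16F1 cultures was hybridised to 1-colour (Cy3) Agilent arrays, per the labels. The deposited intensity, the processed signal, came out of Agilent's Feature Extraction software (version 12.0.3.1), as the submitters' processing notes state. Per the file headers this intensity had its background subtracted and was spatially detrended. The background flags come from the same files. All arrays share 1 slide and 1 scan. The value table deposited by the authors holds the same intensity times 1 constant per array.

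Here control spots and outlier spots were left out, spots of a probe were averaged, and log2 signals were centred on each array's 75th percentile. Probes were named through RefSeq accessions (GRCm38.p6); the probe with the highest mean stood for a gene. To enter a comparison, a gene had to be well above background on all arrays of 1 of the groups. Folds against a background level use the lowest signal well above background, as bounds. The knockout contrast was fitted with limma 3.58.1 (R 4.3.3) with all 5 arrays as 4 groups and p-values adjusted by Benjamini and Hochberg (0.05); 1 residual degree of freedom comes from the 2 clones, and the wild-type arrays are assumed to vary like them. The p-values cover no more than the spread between these 2 clones, with 1 array each. Nothing says whether the wild-type cultures were grown separately, and their own spread is not known. The fit was also run on simulated arrays given the same spread per gene in every group. That run cannot check whether wild-type arrays vary like the clones. The number of arrays limits the precision.

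The members and the lists were chosen with earlier results of these data known. Beyond the 6 genes, named genes are Tmsb4x, Vegfa, Hif1a, Pam and Ackr3, up to 2 highest and 2 lowest measured genes per list at 2-fold, and the 8 genes most like Adm. Crcp, Gnas, the genes of the full Adm order and the genes that differ between the clones were named after their values were seen. Because the files hold no mean signal column, normexp (offset 50) used the median signal.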

Additional observations from a re-analysis of the deposited data

How the results depend on the processing

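The log2 difference of Adm in the knockout contrast was 2.71 and stayed between 2.18 (normexp) and 2.74 under all alternatives. It was 2.51 in the deposited value table, 2.67 with the 75th percentile over detected probes, and 2.68 to 2.74 leaving out 1 clone. Against vehicle it was 1.68, with 1.63 by array median, 1.45 by normexp, 1.59 in the value table and 1.65 to 1.71 leaving out 1 clone. TGF-β1 against vehicle (-1.03) became -0.73 by normexp and -0.93 in the value table. CCG1423 against TGF-β1 (-2.81) became -2.85 by array median, -0.97 by normexp, -2.94 in the value table and -2.75 over detected probes. The normexp setting added an offset of 50 to each signal. The processed signals of Adm were 12.0 with CCG1423 and TGF-β1 and 108 with TGF-β1. The cause of these changes was not tested. A limma contrast of single arrays with the spread of the clones was added after seeing the data. No p is given from it, since the clones and the wild-type TGF-β1 array chose Adm and the value with CCG1423 is a bound.

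With limma 0 genes of the pathway lists passed (8 at an unadjusted p under 0.05). By array median, normexp, the value table, detected probes (added after seeing the data), no filter on dim probes and the 3 knockout and wild-type TGF-β1 arrays alone, 1 passed, Aldoc each time. Over all genes the 32 calls ranged from 0 by quantile normalization (791 at an unadjusted p under 0.05) to 279 without a filter. At 2-fold in the knockout contrast, 1 list gene was higher in both clones; leaving out 1 clone gave 2 to 6 higher and 0 to 3 lower. With CCG1423, 1 list gene was 2-fold higher, 2 by quantile normalization and 0 by normexp. Of 45 further values for Ramp1 and Ramp2, 33 moved by less than the clone SD, 11 by more, and 1 turned sign (Ramp1, knockout contrast, 0.16 here and -0.0388 in the value table). No paired analysis was possible because the labels give every sample replicate number 1. Without clone 1 or clone 2 no residual degree of freedom is left, so those values have no test. Adm2, Calcrl and Ramp3 are limited by signal over background.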

Other observations

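The clones differed from each other in some genes around the adrenomedullin system, although not in Adm. Pam was 2.02-fold higher in clone 2 than in clone 1, and its second probe gave 1.09 on the log2 scale. Of 29 genes of Gs and cyclic AMP signalling, 4 were at least 2-fold higher in clone 2 and 0 lower. Over all genes 4.24% were higher and 3.34% lower. Adcy9, an adenylyl cyclase, was at 2.04 in clone 2 and 0.77 in clone 1, and Crtc3, a CREB coactivator, at 1.30 in clone 2 and 0.20 in clone 1. The others were Prkar1b and Pde4a. The second Pde4a probe was at -3.71 in clone 1 and -4.42 in clone 2. The clone 2 value is below the lowest level well above background on that array (-3.66), so this probe gives no direction. Among 28 HIF targets 23 were lower in clone 2, with a median log2 difference of -0.24, against -0.05 over all genes. Only 1 of them, Ankrd37, was at least 2-fold lower, where 3.34% of all genes were. With 1 array per clone these differences have no replicate check.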
